A study of Mus musculus with 4 samples.

Results

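The regions described here are 4 clusters of KRAB zinc finger genes in the mouse genome, on chromosomes 2, 4 and 13, read as replication timing in fibroblasts. Members are all genomic array probes whose midpoint on build mm9 lies in chr2:174800000-178200000, chr4:144800000-147600000, chr13:62100000-63100000 or chr13:65100000-68000000. They number 282 of 170183 probes on autosomes and X, and all 282 were usable on every array. The rule used position and no measured value, though it was chosen with earlier results of these data known. As comparison served the 1 Mb on either side of each cluster (492 probes in all). On chromosome 13 the interval nearer the centromere is called proximal and the other distal.

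The cells were mouse embryonic fibroblasts, a connective tissue type grown from embryos, with 1 array of 2 colours per group. Cells took up the nucleotide analogue BrdU (50 µM, 1 hour), 80000 were sorted into early and late S phase, and their newly made DNA was immunoprecipitated, amplified and hybridised together, early DNA in Cy3 and late DNA in Cy5. The groups were KO cells, whose genotype is given as deletion of the floxed Suv4-20h1 allele, against control cells of a fibroblast line, and induced against non-induced cells of a Suv4-20h mutant. KO and control shared 1 slide, and induced and non-induced shared another. The protocols describe deletion with 4-hydroxytamoxifen (1 mM, 24 hours) in the same words for all groups, do not say how induced cells were induced, and give the line a different number from the titles. Whether any group also lacks Suv4-20h2 is not given. Each group is a single array of a single line with no replicate, so no difference between groups has a test or a p-value. Standard errors (SE) run over probes of an array and leave out the variation between cultures, and neighbouring probes are not independent.

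KRAB zinc finger proteins bind DNA through arrays of zinc fingers and, through the KRAB domain, recruit the corepressor TRIM28 and the methyltransferase SETDB1, which places trimethylation on lysine 9 of histone H3. Many of them silence transposable elements, and in mouse embryonic stem cells deletion of the chromosome 4 cluster is known to release retrovirus-like elements from silencing. Their genes arose by tandem duplication, and the clusters themselves are known to carry the same histone mark. Suv4-20h enzymes add methyl groups to lysine 20 of histone H4 and act at heterochromatin. Replication timing is the order in which chromosome domains are copied in S phase: active domains tend to be copied early and silent ones late.

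The gene content was read from the RefSeq gene order of build GRCm38.p6, which differs from the build of the probes, so genes were not placed on probes. Between Edn3 and Phactr3 on chromosome 2 that order holds 32 protein-coding genes, 9 of them named as zinc finger genes. Between Tnfrsf8 and Miip on chromosome 4 it holds 19, of which 17 are so named, Zfp600 and Rex2 among them. Between Cts3 and Fbp2 on chromosome 13 it holds 12, of which Zfp808, Zfp935 and Zfp934 are so named. Between Prss47 and Mtrr it holds 49, of which 27 are so named. Genes were counted by symbol alone (beginning with Zfp, Rex2 or Rsl), so zinc finger genes under any other symbol were not counted. That last run includes Rslcan18, Rsl1, a repressor of genes expressed in male liver, and Zfp708, which binds a retrotransposon family in mouse embryonic stem cells.

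How alike the copies are differed between clusters. Only promoters of the genes counted above were compared. On chromosome 2 the median promoter was 97.7% identical to its closest relative among them in the cluster (9 promoters, each 300 bases around the annotated start). There 7 of 9 had a relative more than 95% identical. The same median was 89.0% on chromosome 4 (13 promoters, 3 with such a relative) and 73.0% in the distal chromosome 13 cluster (23 promoters, none with such a relative). The only pair matched in the proximal chromosome 13 cluster, Zfp808 and Zfp935, was 79.7% identical. A pair from the most alike cluster and the closest pair of the least alike one are shown to make that contrast visible, credited to RefSeq, GRCm38.p6, each 5′ to 3′ on the strand of its gene, with capitals marking bases with no match in the other member of the pair. Zfp968 (chr2:175372186-175372485, plus strand) and Zfp973 (chr2:176670272-176670571, plus strand) share 299 of 300 bases.
Zfp968: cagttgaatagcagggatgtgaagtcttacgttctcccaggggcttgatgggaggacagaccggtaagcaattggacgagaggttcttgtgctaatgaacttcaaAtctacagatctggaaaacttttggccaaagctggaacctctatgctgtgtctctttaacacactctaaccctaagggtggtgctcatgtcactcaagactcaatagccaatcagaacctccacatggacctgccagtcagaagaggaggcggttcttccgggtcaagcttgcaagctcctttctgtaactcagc
Zfp973: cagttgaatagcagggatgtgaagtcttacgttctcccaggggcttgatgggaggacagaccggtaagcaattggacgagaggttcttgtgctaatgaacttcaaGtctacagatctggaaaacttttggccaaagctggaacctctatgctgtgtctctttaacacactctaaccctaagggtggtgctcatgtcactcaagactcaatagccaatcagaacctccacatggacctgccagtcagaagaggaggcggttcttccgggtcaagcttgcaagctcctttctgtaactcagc
Rsl1 (chr13:67172932-67173231, plus strand) and Zfp429 (chr13:67399718-67400017, minus strand) share 269 of 300 bases.
Rsl1: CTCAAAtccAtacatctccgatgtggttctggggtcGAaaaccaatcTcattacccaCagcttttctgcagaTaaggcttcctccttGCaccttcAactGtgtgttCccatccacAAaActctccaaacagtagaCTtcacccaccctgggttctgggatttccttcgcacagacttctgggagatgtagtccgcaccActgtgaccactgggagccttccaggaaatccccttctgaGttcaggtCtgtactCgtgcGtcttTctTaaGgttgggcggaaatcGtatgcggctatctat
Zfp429: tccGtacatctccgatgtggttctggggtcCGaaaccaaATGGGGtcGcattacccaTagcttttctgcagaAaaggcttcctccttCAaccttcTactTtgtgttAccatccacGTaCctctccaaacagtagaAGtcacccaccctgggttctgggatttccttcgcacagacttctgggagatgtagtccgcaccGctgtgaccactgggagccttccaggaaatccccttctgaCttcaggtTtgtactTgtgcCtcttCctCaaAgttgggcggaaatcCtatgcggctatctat

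Probes were sparse in the clusters and left the middle of 3 of them almost unread. The chromosome 2 cluster held 37 probes in 3.4 Mb, or 10.9 per Mb, against 45.0 per Mb in its flanks. No probe lay between 174984258 and 177829754, and 35 of the 37 probes lay in the last 0.4 Mb. The chromosome 4 cluster held 84 probes, or 30.0 per Mb against 82.0 per Mb in its flanks, with a largest gap of 0.77 Mb. The proximal chromosome 13 cluster held 36 probes at 36.0 per Mb, against 65.0 per Mb in its flanks. The distal one held 125 probes at 43.1 per Mb, against 54.0 per Mb, with a gap of 1.26 Mb. The cluster with the most alike promoters had the fewest probes per Mb, and the one with the least alike promoters the most. With 4 clusters this is a description, and why probes are sparse was not tested. Of 49 windows of 200 kb wholly inside a cluster, 16 held the 5 or more probes needed for a value: 2 of 17 on chromosome 2, 5 of 14 on chromosome 4, 3 of 4 in the proximal and 6 of 14 in the distal chromosome 13 cluster.

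**Figure D1:**
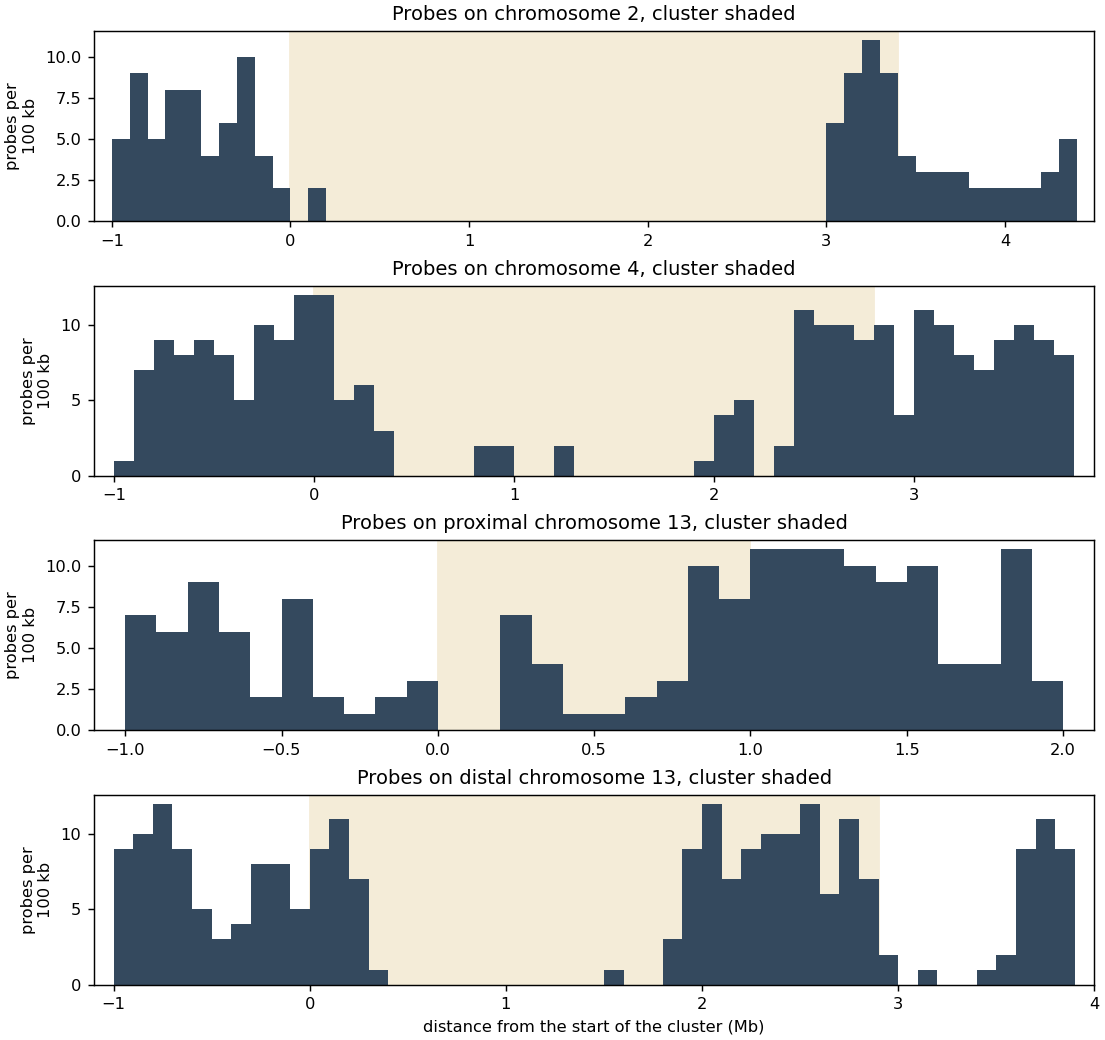
Probes per 100 kb against distance from each cluster's start in Mb, for the 4 clusters and their flanks. On chromosome 2 the bars are at 0 through most of the cluster and return in its last 0.4 Mb, while on distal chromosome 13 they resume for the last Mb.

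Timing is given as log2 of early over late signal, centred on the autosomal median of each array, so that higher means earlier. The arrays differed in range: the distance from the 10th to the 90th percentile over all 12000 windows was 2.31 in KO and 1.81 in control cells, and 2.70 in induced and 2.07 in non-induced cells. The median window differed by -0.16 for KO minus control and by -0.13 for induced minus non-induced, and values in clusters are to be read against those shifts. Spots well above background in both channels made up 92.4% of genomic spots on the KO array, 94.0% on control, 88.5% on induced and 94.7% on non-induced. On the KO array 117 of 134 chromosome Y probes were well above background, against 58 on the control array, and the median difference in total signal of chromosome X probes was -0.47 log2, KO minus control. On the induced array 49 were above background, against 61 on the non-induced array. The KO and control arrays thus also differed on the sex chromosomes, and the part of that in the timing differences was not tested.

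The 4 clusters did not share 1 timing. The chromosome 2 cluster, read almost wholly in its last 0.4 Mb, and the distal chromosome 13 cluster were late on every array. The chromosome 4 and proximal chromosome 13 clusters averaged near the middle of the genome. The chromosome 2 cluster had a mean timing of -1.05 ± 0.15 in KO and -0.61 ± 0.10 in control cells, and -1.36 ± 0.14 in induced and -1.03 ± 0.10 in non-induced cells (SE over 37 probes). Its probes spanned -2.85 to 0.81 (median -0.99) in KO, -1.78 to 0.50 (-0.65) in control, -2.90 to 0.72 (-1.58) in induced and -2.08 to 0.26 (-1.12) in non-induced cells. Between 15.6% and 28.8% of all windows were later than its mean, depending on the array. It was late without being among the latest windows.

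The distal chromosome 13 cluster had a mean timing of -0.82 ± 0.07 in KO and -0.91 ± 0.04 in control cells, and -1.18 ± 0.07 in induced and -0.84 ± 0.06 in non-induced cells (SE over 125 probes). Of its 125 probes, 107 were below 0 in KO, 119 in control, 119 in induced and 110 in non-induced cells. On the control array 11.4% of all windows were later than its mean, against 38.6% on the KO array, although the mean itself moved little. The control array has the narrowest range and the KO array a lower median.

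The chromosome 4 cluster averaged 0.07 ± 0.11 in KO and 0.24 ± 0.07 in control cells, and 0.31 ± 0.12 in induced and 0.34 ± 0.09 in non-induced cells (SE over 84 probes). The proximal chromosome 13 cluster averaged 0.06 ± 0.17 in KO and -0.04 ± 0.16 in control cells, and 0.17 ± 0.18 in induced and 0.15 ± 0.18 in non-induced cells (SE over 36 probes). Both values hide a mixture of early and late stretches. On no array were those 2 clusters separated by more than their spread over probes, the largest gap being 0.28 ± 0.17 in control cells. The chromosome 2 and distal chromosome 13 clusters were separated by 0.24 ± 0.16 in KO, 0.30 ± 0.11 in control, 0.18 ± 0.16 in induced and 0.19 ± 0.12 in non-induced cells. Chromosome 2 was the later on every array except control. The step from this late pair to the next cluster was larger, 0.88 ± 0.19 in KO and 0.57 ± 0.19 in control cells, and 1.35 ± 0.19 in induced and 0.99 ± 0.19 in non-induced cells.

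**Figure D2:**
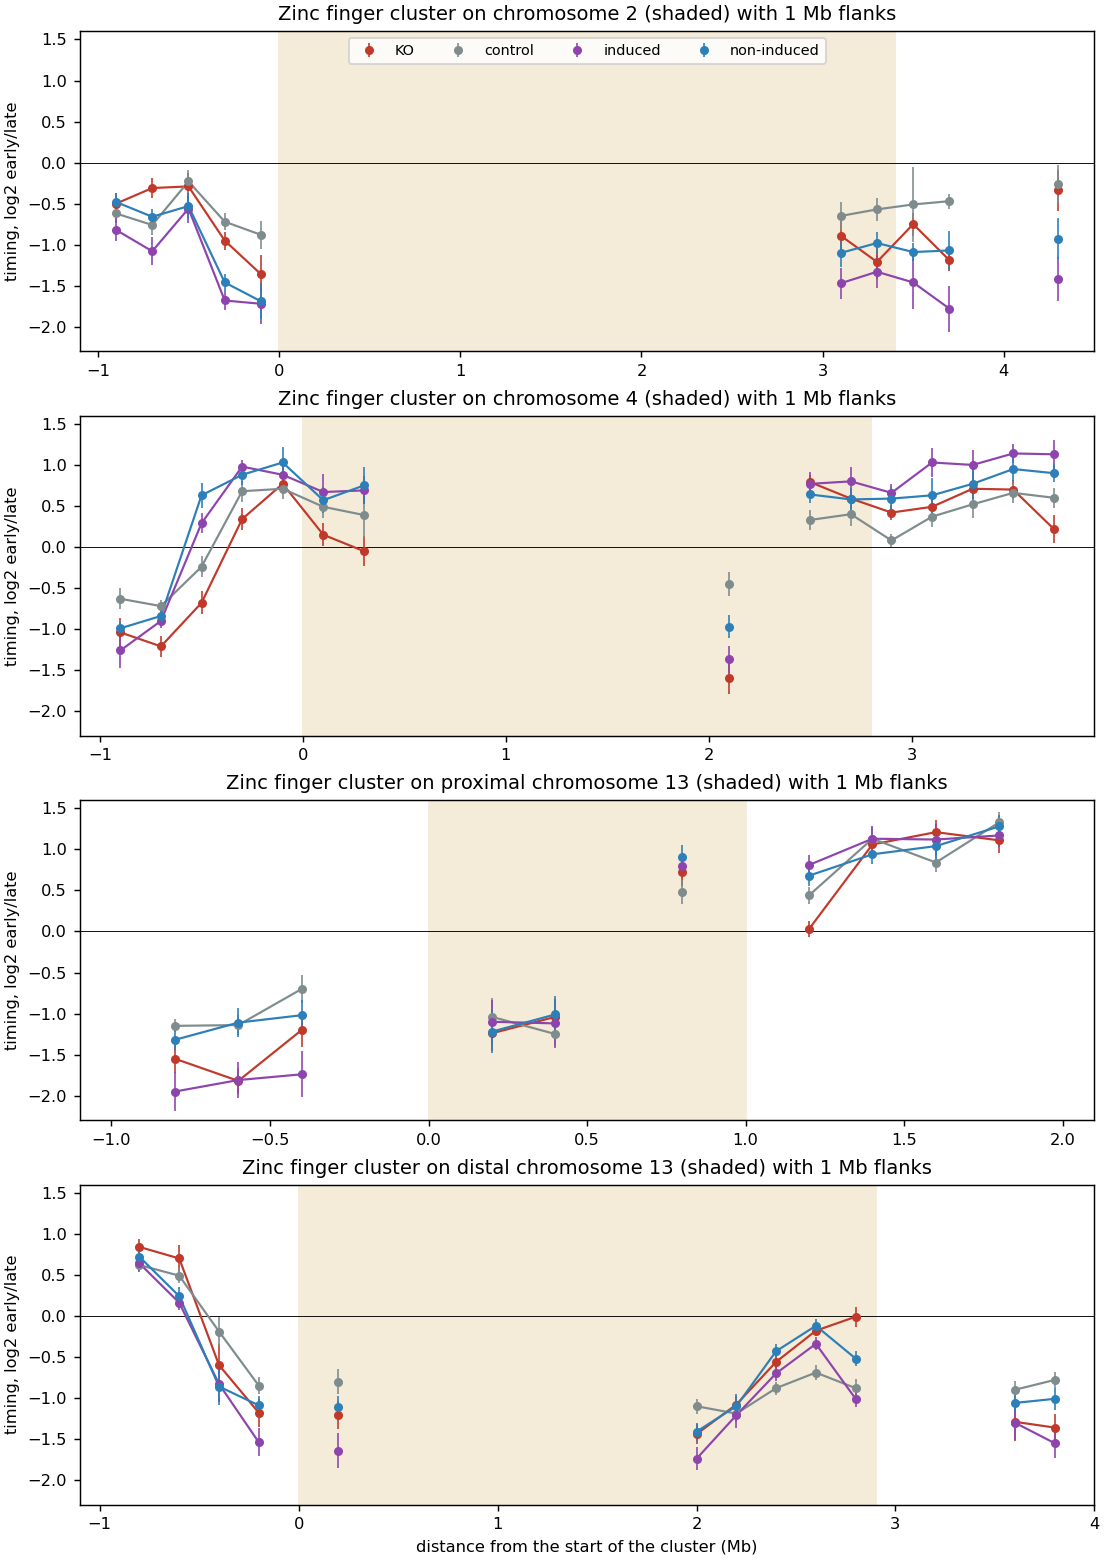
Mean timing of 200 kb windows (log2 early over late, bars are SE over probes) against distance from each cluster's start in Mb, for the KO, control, induced and non-induced arrays. The chromosome 4 cluster dips between its edges, the proximal chromosome 13 cluster switches from late to early, and the last 0.6 Mb of the distal chromosome 13 cluster separates the arrays.

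Against their surroundings, the distal chromosome 13 cluster was the one that was later than its 1 Mb flanks by more than 3 SE on all 4 arrays. Cluster minus flanks was -0.48 ± 0.13 in KO and -0.72 ± 0.09 in control cells, and -0.60 ± 0.13 in induced and -0.48 ± 0.11 in non-induced cells. Its flanks were unlike each other: the left flank averaged 0.10 in KO and 0.09 in control cells, and the right flank -1.25 in KO and -0.77 in control cells. With flanks of 0.5 Mb the sign turned on 3 arrays, to 0.22 in KO, 0.15 in induced and 0.23 in non-induced cells, so that its place relative to its flanks depended on their width. The chromosome 2 cluster differed from its 1 Mb flanks by -0.38 ± 0.16 in KO and -0.03 ± 0.12 in control cells, and by -0.02 ± 0.17 in induced and -0.06 ± 0.12 in non-induced cells. This too depended on the width of the flanks: with flanks of 2 Mb the difference was -1.05 in KO and -0.58 in control cells, and -1.08 in induced and -0.88 in non-induced cells. The chromosome 4 cluster differed from its flanks by -0.08 ± 0.13 in KO and -0.03 ± 0.09 in control cells, and by -0.30 ± 0.14 in induced and -0.21 ± 0.11 in non-induced cells. The proximal chromosome 13 cluster differed by 0.10 ± 0.21 in KO and -0.24 ± 0.18 in control cells, and by 0.17 ± 0.22 in induced and -0.02 ± 0.21 in non-induced cells.

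**Figure D3:**
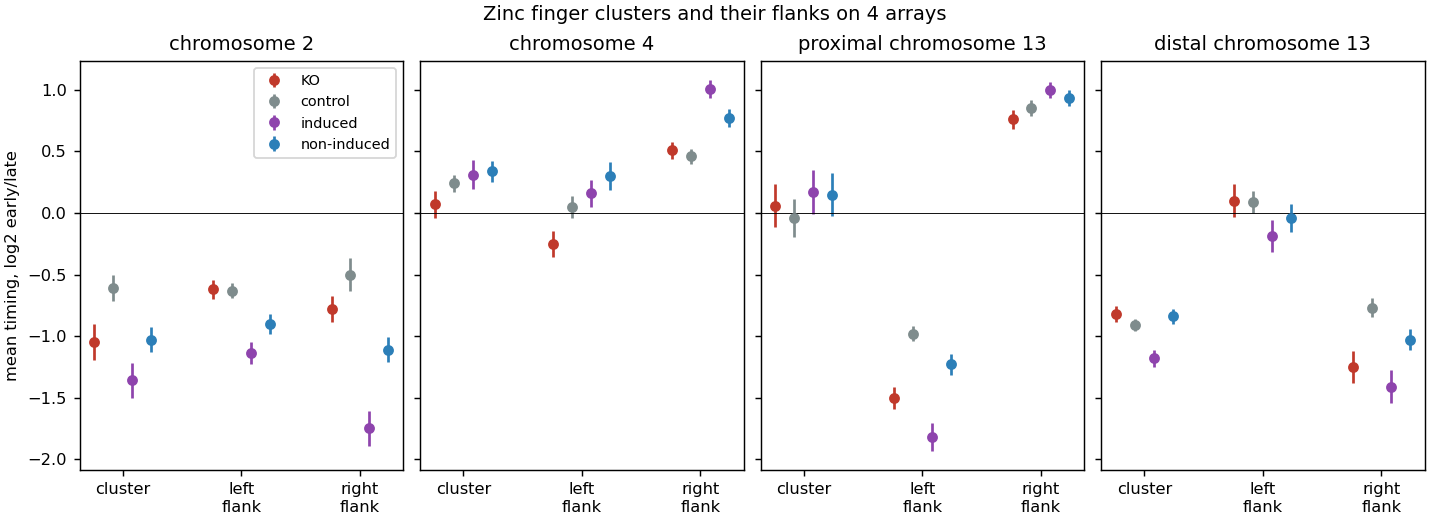
Mean timing (log2 early over late) of each cluster and of its left and right 1 Mb flanks on the 4 arrays, with bars of 1 SE over probes. The proximal chromosome 13 cluster lies between a late left and an early right flank, and the distal one between an earlier left and a late right flank.

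The proximal chromosome 13 cluster changes from late to early along its length on all 4 arrays. The window from 62400001 was late, at -1.04 in KO and -1.25 in control cells, and at -1.12 in induced and -1.01 in non-induced cells. The window from 62800001 was early, at 0.73 in KO and 0.48 in control cells, and at 0.80 in induced and 0.91 in non-induced cells. The step between them was 1.77 ± 0.27 in KO and 1.73 ± 0.21 in control cells, and 1.92 ± 0.34 in induced and 1.92 ± 0.26 in non-induced cells. Where between those windows the sign turned differed by probe, and not in 1 direction. The probe starting at 62693851 had 0.25 in KO and 0.03 in control cells, and -0.23 in induced and -0.32 in non-induced cells. That starting at 62781773 had -0.30 in KO and -0.40 in control cells, and 0.26 in induced and 0.47 in non-induced cells. That starting at 62791581 had -0.45 in KO and -0.03 in control cells, and 0.75 in induced and 0.57 in non-induced cells. The cluster's left flank was late, at -1.50 in KO and -0.98 in control cells, and its right flank early, at 0.76 in KO and 0.85 in control cells. The order of its probes was alike between arrays, with a Pearson r over 36 probes of 0.93 between KO and control and 0.95 between induced and non-induced. These correlations are across probes that share probe composition and, within a comparison, a slide.

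The chromosome 4 cluster has a core that was later than both its edges on all 4 arrays, a division made after its values were seen. In control cells the core lay near the middle of the genome, and in KO cells so did the first edge. Its first 0.4 Mb averaged 0.08 ± 0.11 in KO and 0.46 ± 0.13 in control cells, and 0.68 ± 0.15 in induced and 0.63 ± 0.13 in non-induced cells (26 probes). Its last 0.4 Mb averaged 0.69 ± 0.07 in KO and 0.36 ± 0.09 in control cells, and 0.79 ± 0.10 in induced and 0.61 ± 0.08 in non-induced cells (40 probes). The 16 probes between 145600000 and 147000000 averaged -1.57 ± 0.15 in KO and -0.38 ± 0.10 in control cells, and -1.46 ± 0.13 in induced and -0.81 ± 0.10 in non-induced cells. In KO cells those 16 probes ran from -2.55 to -0.43 (median -1.62), in control cells from -1.31 to 0.35 (median -0.40). In induced cells they ran from -2.36 to -0.46 (median -1.45), and in non-induced cells from -1.59 to 0.01 (median -0.82). Only 4.1% of all windows were later than this core in KO cells, against 40.1% in control cells, and 15.8% in induced against 26.5% in non-induced cells.

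KO cells were set against control cells to ask how loss of Suv4-20h1 bears on the timing of the clusters. The core of the chromosome 4 cluster was later in KO, parts of the chromosome 2 cluster were later, the end of the distal chromosome 13 cluster was earlier, and the proximal chromosome 13 cluster differed little. The mean difference, KO minus control, was -0.44 ± 0.11 on chromosome 2 (25 of 37 probes lower), read almost wholly in its last 0.4 Mb. It was -0.17 ± 0.09 on chromosome 4 (47 of 84 lower), 0.10 ± 0.06 in the proximal (14 of 36 lower) and 0.09 ± 0.06 in the distal chromosome 13 cluster (55 of 125 lower). The 4 clusters thus did not move one way. On chromosome 2 the size depended on the processing, at -0.12 with normexp background correction, -0.13 with quantile normalization and -0.05 with the trend of the difference on timing removed.

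Windows counted as called, later or earlier, where KO and control cells differed by 0.25 of the percentile distance on the control array or more, which is 0.45 log2, and by 3 SE or more. By this rule 2 of the 16 cluster windows were called later in KO, while 22.2% of all 12000 windows were. Another 3 of 16 were called earlier, while 8.02% of all windows were. With 16 windows these counts do not set the clusters apart from the genome. The median difference over the 16 was -0.05, against -0.16 over all windows, with 8 lower and 8 higher. In the flanks, 5 of 31 windows were called later and none earlier, with a median of -0.23.

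The later call on chromosome 4, chr4:146800001-147000000, lies in the cluster's core. It had -1.59 in KO against -0.45 in control cells, a difference of -1.13 ± 0.23 with 9 of 9 probes lower. Early signal differed by -0.55 and late signal by 0.54 log2, KO minus control, while total signal differed by 0.01. With the trend of the difference on timing removed it was not called (-0.69 ± 0.23). The whole core of 16 probes, those 9 included, differed by -1.18 ± 0.16, with 16 of 16 probes lower. Its bounds were set after its values were seen, and 3.5% of all windows had a lower difference. That core difference ran from -1.52 to -0.75 over the alternatives tried. The edges of the same cluster moved in opposite ways: the first 0.4 Mb by -0.38 ± 0.10 (20 of 26 probes lower) and the last 0.4 Mb by 0.33 ± 0.10 (30 of 40 higher). The earlier call there, chr4:147200001-147400000, had 0.79 in KO against 0.33 in control cells, a difference of 0.46 ± 0.14, just past the threshold. It was not called under 7 of 17 alternatives, equal spread (0.36) among them.

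The later call on chromosome 2, chr2:178000001-178200000, had -1.21 in KO against -0.57 in control cells, a difference of -0.64 ± 0.13 with 17 of 20 probes lower. It was not called under 7 of 17 alternatives, among them equal spread (-0.46), normexp (-0.33), quantile normalization (-0.34), even probes (-0.32) and the timing trend removed (-0.23). The other window there, from 177800001, had -0.89 in KO against -0.65 in control cells, a difference of -0.24 ± 0.17. Signal was low in this cluster: total signal, relative to the autosomal median, was -0.92 in KO and -0.45 in control cells, and 73.0% of its probes were well above background in KO against 86.5% in control. Total signal differed by over 1 log2 between KO and control for 6 of its 37 probes, against 10.84% of all probes, and the part of signal in the difference was not tested.

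Both remaining calls lay at the end of the distal chromosome 13 cluster, which was earlier in KO. The window chr13:67600001-67800000 had -0.18 in KO against -0.69 in control cells, a difference of 0.51 ± 0.07 with 18 of 18 probes higher. It was not called under 5 of 17 alternatives, among them loess (0.27) and normexp (0.35). The window chr13:67800001-68000000 had -0.01 in KO against -0.88 in control cells, a difference of 0.87 ± 0.12 with 16 of 18 probes higher. In this last window early signal differed by 0.46 and late signal by -0.46, while total signal differed by 0.01. It was called earlier under all 17 alternatives that gave it a value, at 0.70 to 1.19. The differences rose with position over the last Mb: -0.35, 0.11, 0.32, 0.51 and 0.87 in its 5 windows from 67000001 on. The last 0.6 Mb, pooled after the values were seen, averaged -0.26 ± 0.07 in KO and -0.82 ± 0.05 in control cells, with 52 of 56 probes higher. Beyond it the right flank went the other way, by -0.48. So did the start of the cluster, where the 28 probes up to 65409440 averaged -1.26 in KO and -0.75 in control cells. Total signal, KO minus control, differed by -0.49 in that flank and by -0.59 at that start, against 0.06 in the last 0.6 Mb. The part of signal in these differences was not tested.

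The proximal chromosome 13 cluster had no called window in KO. Its differences were -0.20 ± 0.06 in the window from 62200001, 0.21 ± 0.12 from 62400001 and 0.25 ± 0.13 from 62800001. Its late left flank differed by -0.52, KO minus control, with 43 of 46 probes lower. Total signal there differed by -0.80 log2, and the part of that in the difference was not tested.

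**Figure D4:**
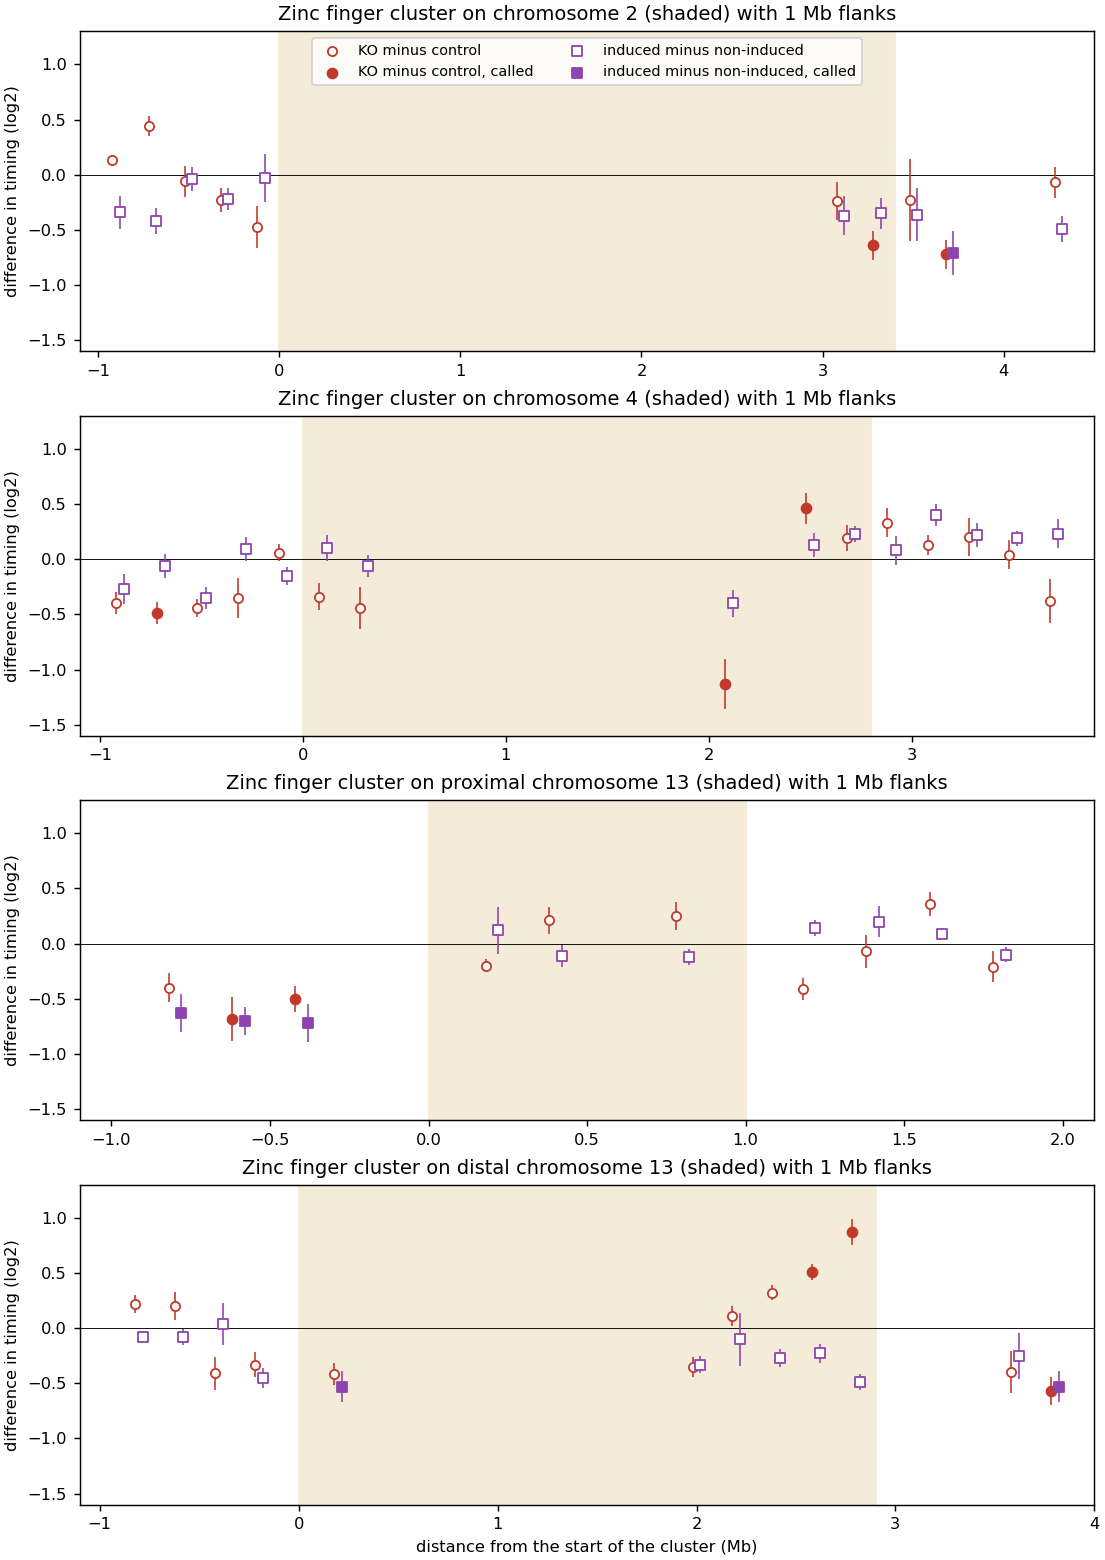
Differences in timing of 200 kb windows (log2) against distance from each cluster's start in Mb, KO minus control and induced minus non-induced, with bars of 1 SE over probes and filled points for called windows. The largest called differences inside clusters are -1.13 in the core of the chromosome 4 cluster and 0.87 at the end of the distal chromosome 13 cluster, both KO minus control.

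Induced cells were set against non-induced cells of the Suv4-20h mutant as a second comparison. Since the protocols do not say how they were induced, whether it reads the same loss as KO is not given. The core of the chromosome 4 cluster was later in induced cells, and so were the distal chromosome 13 and chromosome 2 clusters. The rest of the chromosome 4 cluster and the proximal chromosome 13 cluster differed little. The mean difference, induced minus non-induced, was -0.34 ± 0.05 in the distal chromosome 13 cluster, with 105 of 125 probes lower, and -0.33 ± 0.11 on chromosome 2, with 27 of 37 lower. It was -0.03 ± 0.06 on chromosome 4 (39 of 84 lower) and 0.02 ± 0.06 in the proximal chromosome 13 cluster (20 of 36 lower). The late clusters' shift depended on the scale of the arrays. At equal spread, the distal chromosome 13 value was -0.07 and the chromosome 2 value -0.01, and with the trend on timing removed they turned to 0.06 and 0.13.

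By the same rule, with a threshold of 0.52 log2 from the non-induced array, 1 of 16 cluster windows was called later in induced cells, while 11.9% of all windows were. None of 16 was called earlier, while 0.467% of all windows were. The median difference over the 16 was -0.17, against -0.13 over all windows, with 12 lower and 4 higher. In the flanks 5 of 31 windows were called later and none earlier. The called window, chr13:65200001-65400000, had -1.64 in induced against -1.11 in non-induced cells, a difference of -0.53 ± 0.14 with 16 of 18 probes lower, just past the threshold. It was not called under 10 of 17 alternatives, at -0.16 with equal spread and -0.03 with the timing trend removed. In KO minus control the same window differed by -0.42 ± 0.10.

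The core of the chromosome 4 cluster, with bounds set after its values were seen, differed by -0.65 ± 0.13, induced minus non-induced. In it 14 of 16 probes were lower, and 10.7% of all windows had a lower difference. Over the alternatives the core difference ran from -0.71 to -0.22. Its window from 146800001 had -1.37 in induced against -0.97 in non-induced cells, a difference of -0.40 ± 0.12 that did not reach the threshold. The edges differed by 0.04 ± 0.08 in the first 0.4 Mb and 0.18 ± 0.07 in the last. The highest window of that cluster, from 147400001, differed by 0.23 ± 0.07, with 15 of 19 probes higher, and was not called. On chromosome 2 the 2 windows were alike, at -0.37 ± 0.18 from 177800001 and -0.35 ± 0.14 from 178000001. Only 56.8% of the chromosome 2 probes were well above background in induced cells, against 78.4% in non-induced cells.

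At the end of the distal chromosome 13 cluster, induced cells were later than non-induced cells. The window from 67600001 had -0.34 in induced against -0.12 in non-induced cells, a difference of -0.23 ± 0.09. The window from 67800001 had -1.01 in induced against -0.52 in non-induced cells, a difference of -0.49 ± 0.07 with 17 of 18 probes lower, short of the threshold. The last 0.6 Mb averaged -0.69 ± 0.06 in induced and -0.36 ± 0.06 in non-induced cells, with 50 of 56 probes lower. The highest window difference in this cluster was -0.10 ± 0.24, in the window from 67200001. In the proximal chromosome 13 cluster the windows differed by 0.12 ± 0.21 from 62200001, -0.11 ± 0.10 from 62400001 and -0.12 ± 0.07 from 62800001.

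**Figure D5:**
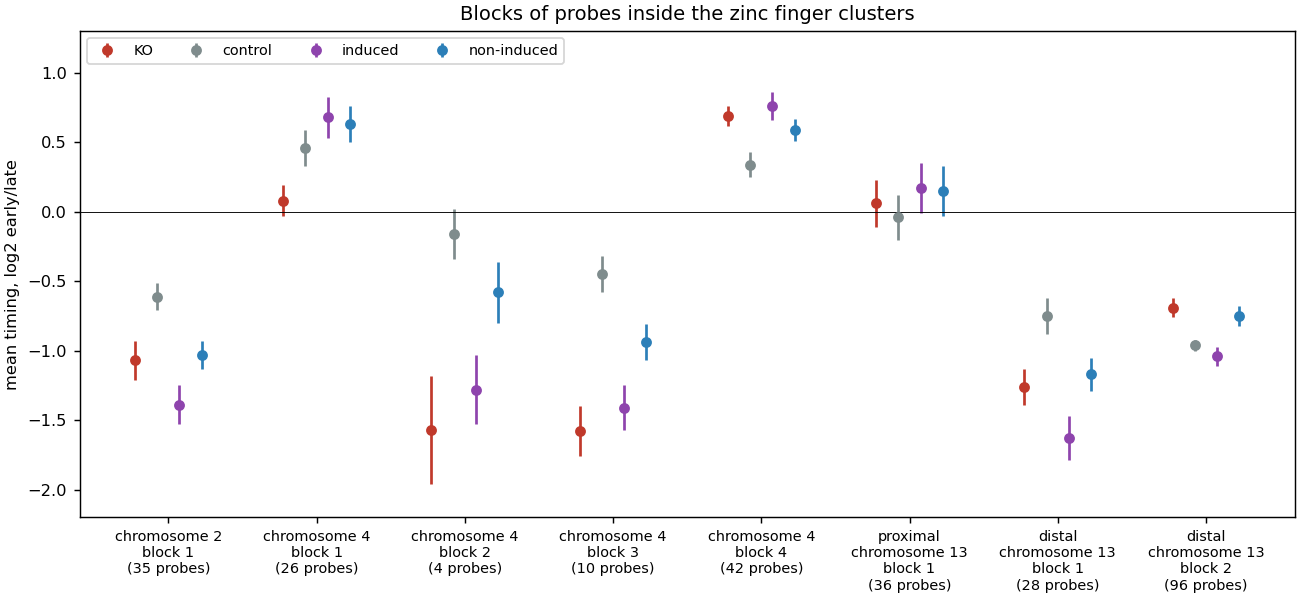
Mean timing (log2 early over late, bars are SE over probes) of runs of at least 4 probes within clusters, split where probes lie 200 kb or more apart, on the 4 arrays. The 2 runs in the core of the chromosome 4 cluster sit at -1.57 and -1.58 in KO against -0.16 and -0.45 in control cells.

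The non-induced and control arrays, which serve as references, also differed from each other, across slides, so that slide and cells cannot be told apart. In the last 0.6 Mb of the distal chromosome 13 cluster, non-induced cells were earlier than control cells by 0.46 ± 0.06, with 46 of 56 probes higher. KO minus non-induced was 0.10 ± 0.07 over that stretch, but its windows went both ways. KO cells stood at -0.56 against -0.43 in non-induced cells from 67400001, and at -0.18 against -0.12 from 67600001. From 67800001, KO cells stood at -0.01 against -0.52 in non-induced cells. Over the whole stretch the 4 arrays stood at -0.26 in KO and -0.82 in control cells, and -0.69 in induced and -0.36 in non-induced cells. In the core of the chromosome 4 cluster non-induced cells were later than control cells (difference -0.43 ± 0.10, 13 of 16 probes lower), and KO cells later than non-induced cells (-0.76 ± 0.18). The chromosome 2 cluster differed by -0.42 ± 0.08, non-induced minus control, with 33 of 37 probes lower, beside its KO minus control difference of -0.44 ± 0.11. Comparisons that use the control array share it, so these values are given side by side and are not independent of KO minus control.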

How the data were processed

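Early and late S phase DNA was hybridised to 1 array of 2 colours for each of 4 groups. Per the labels' protocols, DNA of both fractions went through whole genome amplification, Cy3 marked the early and Cy5 the late one, and no dyes were swapped. Per the file headers, the processed signals are intensity values with local background and spatial trend taken off and a linear dye factor applied to each channel. The scanner software was Agilent Feature Extraction, version 11.5.1.1 per the file headers and 9.1 per the submitters' processing notes. The deposited log10 ratio has late signal on top. It equalled the deposited value table in all 174305 genomic spots per array. It was within 1e-06 of the log10 ratio of processed intensity, late over early, in 174068 to 174255 of them. Its median per array was -0.0282 in KO, 0.0089 in control, -0.0248 in induced and -0.0128 in non-induced cells. Other deposited columns in use were quality flags, a score of 0 or 1 per the file headers. Probe coordinates are on mm9, as in the files.

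Timing is the log2 ratio of processed intensity, early over late. Control spots and spots flagged as outliers (154 to 447 per array) were left out, 11 to 28 saturated spots per array were kept, repeat spots were averaged by probe, and the autosomal median of every array was set to 0, with no loess or quantile step. Windows of 200 kb needed 5 probes. Total signal is the mean of both channels on the log2 scale. The number of arrays limits the precision. Groups followed the labels, and the comparisons were KO minus control and induced minus non-induced. Every window with enough probes could be named, and the lowest, the highest and each called window of a cluster were named. The members, lists and rules were chosen with earlier results of these data known. Window calling was tried on simulated data with known changes. The simulated noise was independent between probes and the arrays had no difference in range. It therefore cannot show how calls behave where neighbouring probes are not independent or arrays differ in range. Alternatives covered background, normalization, scale, probes, windows, flanks and thresholds. Probes come with coordinates and no gene names in the files used here, so lists of other zinc finger genes and of partners of KRAB repression, and the targeted gene, were not analysed here. The software was R 4.3.3 with limma 3.58.1, and Python 3.11.15 with Biopython 1.88, matplotlib 3.10.9, scipy 1.17.1, pandas 2.3.3 and numpy 2.4.6.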

Additional observations from a re-analysis of the deposited data

Results flagged for a closer look

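The distal chromosome 13 cluster had mean differences of opposite sign in the 2 comparisons. The mean was 0.09 ± 0.06 (SE over probes) for KO minus control and -0.34 ± 0.05 for induced minus non-induced, the probes of each comparison coming from 1 pair of arrays. The induced value was -0.07 at equal spread, 0.00 with quantile normalization and 0.06 with the timing trend removed. KO minus control stayed positive under every alternative, at 0.03 to 0.49. The signs thus stayed opposite at equal spread, and were not opposite with quantile normalization or with the timing trend removed. In each of those settings the induced value remained the lower. The window from 67600001 differed by 0.51 for KO minus control and by -0.23 for induced minus non-induced, and the window from 67800001 by 0.87 and by -0.49 for the same comparisons. The difference between the comparisons was not tested, since each group is a single array.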

How the results depend on the processing

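No paired analysis was possible because each group has 1 array. Of 112 cluster differences under alternatives, 85 stayed within the 95% interval over probes. The sign differed from the value reported in 14 of the 112: 5 in the proximal chromosome 13, 3 in the chromosome 4, 3 in the chromosome 2 and 1 in the distal chromosome 13 cluster for induced minus non-induced, and 1 each in the chromosome 4 and proximal chromosome 13 clusters for KO minus control. KO minus control on chromosome 2 was -0.12 with normexp, -0.16 with loess, -0.13 with quantile normalization, -0.65 with odd and -0.22 with even probes, -0.23 with the intensity trend removed and -0.05 with the timing trend removed. On chromosome 4 it was 0.02 with arrays centred on the median window. In the proximal chromosome 13 cluster it was -0.06 with loess, 0.25 with quantile normalization, 0.28 centred on the median window and 0.24 with the timing trend removed. In the distal one it was 0.33 at the same spread, 0.49 with quantile normalization, 0.27 centred on the median window and 0.49 with the timing trend removed. Induced minus non-induced on chromosome 2 was 0.01 with normexp, -0.01 at the same spread, 0.08 with quantile normalization and 0.13 with the timing trend removed. Centred on the median window it was 0.17 on chromosome 4, 0.22 in the proximal and -0.14 in the distal chromosome 13 cluster. In the distal cluster it was -0.07 at the same spread, 0.00 with quantile normalization, -0.24 with the intensity trend removed and 0.06 with the timing trend removed, and 0.07 in its last Mb with that last setting. With flanks of 0.5 Mb the distal chromosome 13 cluster lay above its flanks by 0.22 in KO, 0.15 in induced and 0.23 in non-induced cells.

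Cluster windows called later in KO numbered 1 with normexp, at the same spread, with quantile normalization, with odd or even probes, centred on the median window, in windows of 500 kb, with at least 10 probes and with a size threshold of 0.4. They numbered 0 with the timing trend removed and 5 in windows of 100 kb. Those called earlier numbered 5 with quantile normalization or the timing trend removed, and 1 with even probes, in windows of 500 kb or with the size threshold of 0.4. Windows called later in induced cells numbered 2 with probes well above background or with even probes. They numbered 0 with normexp, loess, the same spread, quantile normalization, odd probes, centring on the median window, either trend removed, windows of 500 kb or the size threshold of 0.4. The cause was not tested for any of these. Trend removal and the probe filter on unequal total signal were run on differences only, and the filter was chosen after seeing the data. Odd probes and windows of at least 10 probes left the window chr4:146800001-147000000 without a value. Probe number limits the chromosome 2 cluster and the middle of the chromosome 4 and distal chromosome 13 clusters. Dim spots were most frequent on the induced array.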
